A study of Homo sapiens with 4 samples.

Results

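Amino acid transporter genes were examined in BT549 cells that had been sorted by flow cytometry into an NRP2-high and an NRP2-low population. The group holds 33 genes of the solute carrier (SLC) families, taken by name from a list that includes *SLC7A11* and *SLC38A5*. Of the 31681 genes in the count table, 31 were members of that list, and *SLC7A14* and *SLC6A17* were not analysed here. BT549 is an established human triple-negative breast cancer line with a mesenchymal character, and NRP2 (neuropilin-2) is a transmembrane receptor for VEGF and semaphorins. RNA from 2 NRP2-high and 2 NRP2-low libraries was sequenced, and all 4 came from the same unmodified line with no drug, irradiation or knockdown given for them. The comparison addressed how the transcriptome of cells with high surface NRP2 differed from that of cells with low surface NRP2. Neither labels nor methods state that separate cultures or separate sorts stood behind the paired libraries of each population. The p-values therefore rest on the spread between these samples alone, which may be technical.

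Amino acids are polar and need carrier proteins to cross membranes. Some carriers use the sodium gradient to concentrate amino acids in the cell, others exchange 1 amino acid for another, and a further set works in the lysosome, where digested protein is returned to the cytosol and where mTORC1, the growth-controlling kinase complex, senses amino acids. In tumour cells these carriers are known for supplying glutamine, leucine and other essential amino acids, and for importing cystine, the precursor of the antioxidant glutathione. SLC7A11 (xCT), which exchanges internal glutamate for external cystine, is a classical target of the transcription factor NFE2L2, and the study followed its transcript as a readout of that factor.

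The libraries held 18727299 and 20585102 counts in NRP2-high cells, against 19183827 and 18165923 counts in NRP2-low cells. Levels are given as CPM, counts scaled to a common library size after correction for library composition, and 3 counts in a library corresponded to 0.151 to 0.163 CPM. The sorted gene itself, *NRP2*, had 2588 and 2839 counts in NRP2-high libraries, against 195 and 166 counts in NRP2-low libraries. The defining epithelial markers *CDH1* and *EPCAM* did not exceed 5 and 4 counts, and *VIM* had 1310 and 1400 CPM in NRP2-high cells, against 1290 and 1260 CPM in NRP2-low cells. The summed level of the 7 mesenchymal markers was 5770 and 6050 CPM in NRP2-high cells, against 2820 and 2830 CPM in NRP2-low cells, and *FN1* supplied most of that gap. Of these 7 genes, *FN1* (log2 fold change 1.85) and *SNAI2* (1.68) rose, *CDH2* (-0.59) fell and 4 did not pass. The 6 epithelial markers with a row summed to 60.6 and 60.2 CPM in NRP2-high cells, against 59.9 and 56.0 CPM in NRP2-low cells, mostly from *ERBB2*, but single keratins differed widely. *KRT19* had 205 and 266 counts in NRP2-high libraries, against 6 and 7 counts in NRP2-low libraries, and rose (log2 fold change 5.19), while *KRT8* fell by 2.78 and *KRT18* fell by 3.39 on the log2 scale. The 4 leukocyte markers with a row summed to at most 1.06 CPM in any library with *LYZ* at 0 throughout, and the 3 endothelial markers with a row to 0.489 and 0.722 CPM in NRP2-high cells, against 0.1 and 0.106 CPM in NRP2-low cells. The share of mitochondrially encoded genes in the counts was 6.92% and 9.16% in NRP2-high libraries, against 5.57% and 5.85% in NRP2-low libraries. The part of these differences in the results below was not tested.

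Transporter transcripts changed in both directions between the populations, and the summed level of the group differed far less than that of single carriers. *SLC38A5* and *SLC1A3* showed the largest increases in NRP2-high cells and *SLC15A3*, *SLC6A15* and *SLC1A1* the largest decreases. Of the 33 listed genes, 26 had enough counts to be tested, and with edgeR's quasi-likelihood test at a Benjamini-Hochberg adjusted p under 0.05 over all tested genes, 10 rose, 12 fell and 4 did not pass. That was 84.6% of the tested members, beside 56.5% of the 15083 genes tested in all. By direction, 28.9% of all tested genes were higher and 27.7% were lower. Members past the test and over 2-fold made up 34.6% of those tested (3 higher and 6 lower), beside 16.3% of all genes (7.62% higher and 8.67% lower), and 5 members were over 4-fold (19.2%, beside 6.0%). The median log2 fold change was -0.06 for the tested members and -0.01 for all genes, and the median size regardless of sign was 0.60, beside 0.39. Among 179 tested SLC-named genes outside the list, 62.0% were called. The members and the other gene lists were chosen with earlier results of these data known, so their shares are descriptions and no test of a group. Since *SLC38A5*, *SLC15A3* and *SLC7A7* passed the count filter only through the population in which they were high, the counts were also made with at least 10 counts required in every library. Then 19 of 23 members were called (82.6%), beside 57.4% of 13516 genes. In these bulk libraries, fewer cells that express a gene and less of its RNA per cell cannot be told apart.

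**Figure D1:**
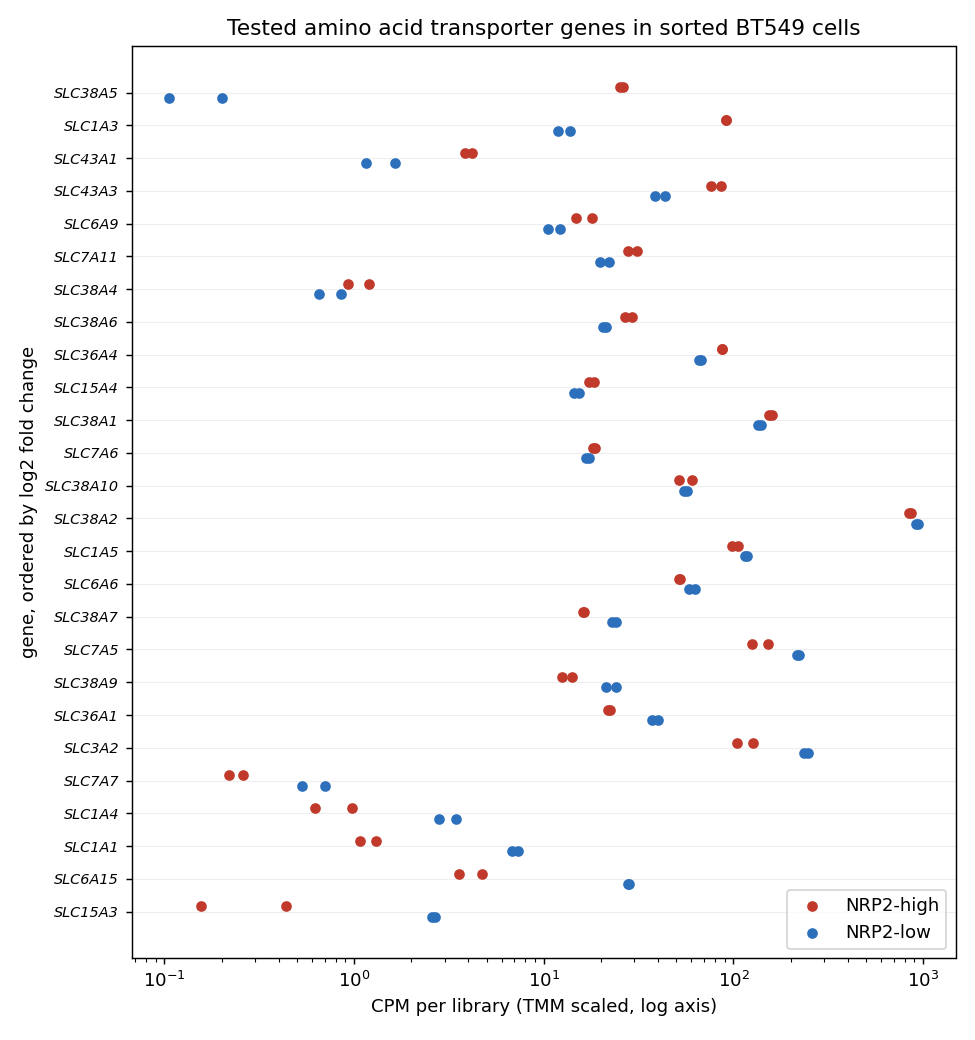
CPM of the 26 tested amino acid transporter genes in each of the 2 NRP2-high libraries (red) and 2 NRP2-low libraries (blue) on a log axis, ordered by fold change. The points of the populations are separate for 25 genes and overlap for *SLC38A10*, and *SLC38A5* has the widest gap, with 26.3 and 25.2 CPM in NRP2-high cells against 0.201 and 0.106 CPM in NRP2-low cells.

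The members did not share a level. On the scale of TPM, counts per gene length that sum to the same total in every library, *SLC38A2*, a sodium-coupled importer of small neutral amino acids, was the most abundant in every library, with 445 and 411 TPM in NRP2-high cells, against 511 and 523 TPM in NRP2-low cells. It made up 39.7% and 42.5% of the summed member TPM in NRP2-high cells, against 40.4% and 40.9% in NRP2-low cells. The whole sum was 1120 and 968 TPM in NRP2-high cells, against 1270 and 1280 TPM in NRP2-low cells. On log2(TPM + 1) the median difference of all tested genes was itself -0.136, which this sum does not correct for. The CPM of the populations did not overlap for 25 of the 26 tested members, beside 78.2% of all tested genes, for which 2 libraries a group set a low bar.

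The stretches of genome before 3 of the genes that the results turn on are shown first, because these genes differed in response: 1 with hardly any transcript in NRP2-low cells, 1 with a moderate level there, and 1 that was abundant in both populations and lower in NRP2-high cells. The members with the largest decreases are not among them. Each line is the 250 bases before a RefSeq transcript start (GRCh38.p14), read in the direction of the gene. Capitals mark a match to TGATGNAA, the letters of the C/EBP-ATF response element to which ATF4 binds in amino acid shortage, or to TGACNNNGC, the core of the antioxidant response element to which NFE2L2 binds. Both strands were searched. The windows are chrX:48470261-48470510 on the minus strand (*SLC38A5*), chr5:36596338-36596587 on the plus strand (*SLC1A3*, an upstream start outside the gene span of the count table, chosen from 3 windows of this gene because it overlaps no exon of a listed transporter) and chr16:87869508-87869757 on the minus strand (*SLC7A5*). None of them overlaps an annotated exon of a listed transporter, and exons of other genes were not checked.
SLC38A5: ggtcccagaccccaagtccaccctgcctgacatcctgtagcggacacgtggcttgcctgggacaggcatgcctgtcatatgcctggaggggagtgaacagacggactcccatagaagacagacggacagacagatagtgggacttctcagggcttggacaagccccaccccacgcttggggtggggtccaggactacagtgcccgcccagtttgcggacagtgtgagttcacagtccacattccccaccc
SLC1A3: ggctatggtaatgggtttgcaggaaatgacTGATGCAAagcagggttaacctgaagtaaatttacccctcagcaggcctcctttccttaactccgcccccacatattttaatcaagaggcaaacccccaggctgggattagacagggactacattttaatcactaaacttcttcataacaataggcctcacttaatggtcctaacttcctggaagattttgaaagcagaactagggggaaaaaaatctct
SLC7A5: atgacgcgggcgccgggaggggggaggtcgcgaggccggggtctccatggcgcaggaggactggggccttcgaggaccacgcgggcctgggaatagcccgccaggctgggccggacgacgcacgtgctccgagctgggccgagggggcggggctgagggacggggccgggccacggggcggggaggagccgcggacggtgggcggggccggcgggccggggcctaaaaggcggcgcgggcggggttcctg
The *SLC1A3* window held TGATGCAA, 220 bases before the start, and the *SLC38A5* and *SLC7A5* windows held neither motif. A second *SLC1A3* window, at the start of the counted gene, held TGACAAAGC and not TGATGNAA, and the third held neither. Their G and C content was 60.8% (*SLC38A5*), 43.2% (*SLC1A3*) and 79.6% (*SLC7A5*). RefSeq windows matched 26 of the 33 members, with 45 windows in all, and *SLC7A11* was not among the genes searched. TGATGNAA was in 2 of these 45 windows (4.44%, in *SLC1A3* and *SLC1A5*), beside 3.14% of 35116 windows of all genes, and TGACNNNGC in 6 of them (13.3%), beside 10.9%. The genes with TGACNNNGC were *SLC3A2*, *SLC7A6*, *SLC7A7*, *SLC1A3*, *SLC1A5* and *SLC15A4*, of which 3 fell, 2 rose and 1 did not pass the test. A match in these letters is a description of the window only.

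Of the tested members, the system N carrier gene *SLC38A5* showed the widest gap in transcript. *SLC38A5* (ENSG00000017483.14, chrX 48458537 to 48470256, minus strand, hg38) encodes a transporter that carries glutamine, histidine, asparagine and serine with sodium in exchange for protons. It had 484 and 489 counts in NRP2-high libraries, against 4 and 2 counts in NRP2-low libraries. Transcript was plentiful in both NRP2-high libraries and close to the detection limit in both NRP2-low libraries. The mean was 25.8 ± 0.794 CPM in NRP2-high cells and 0.154 ± 0.0668 CPM in NRP2-low cells (SD, n = 2 each). The log2 fold change was 7.32 (edgeR adjusted p = 9.1e-10), and the SE of 0.22, derived from the test statistic, is narrower than the counting error. With so few counts in NRP2-low cells the size is uncertain: the ratio of the pooled counts was 166 (95% Clopper-Pearson interval 76.1 to 454, counting error only), and with 1 added to TPM or FPKM the log2 difference was 4.28 or 2.79. The nearest tested genes on either side, *ZNF182* and *FTSJ1*, had log2 fold changes of -0.11 and 0.23.

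The other SLC38 members differed far less. *SLC38A1*, which imports glutamine and other neutral amino acids, rose by 0.18 on the log2 scale (edgeR adjusted p = 0.011), with 159 and 154 CPM in NRP2-high cells, against 135 and 140 CPM in NRP2-low cells. *SLC38A2* did not pass, at a log2 fold change of -0.12 (adjusted p = 0.065), although its levels did not overlap, at 844 and 866 CPM in NRP2-high cells, against 917 and 940 CPM in NRP2-low cells. *SLC38A4* did not pass either (log2 fold change 0.50, SE 0.36, adjusted p = 0.26), with 13 to 22 counts in any library. These 3 related system A genes lie beside each other on chromosome 12, and their differences were small beside that of *SLC38A5* on the X chromosome. The call for *SLC38A1* was lost when either of the NRP2-low libraries was left out (log2 fold change 0.15 and 0.21), and *SLC38A2* passed as lower in 9 of 17 alternatives, among them those without either NRP2-high library (-0.09 and -0.14), limma-voom (-0.12), the 10-count filter (-0.13), upper-quartile scaling (-0.20) and log2(TPM + 1) (-0.27). *SLC38A5* supplied 3.92% and 3.71% of the summed SLC38 TPM in NRP2-high cells, against 0.0294% and 0.0152% in NRP2-low cells, and *SLC38A2* supplied 76.3% and 77.5% in NRP2-high cells, against 81.7% and 82.0% in NRP2-low cells.

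The glutamate and aspartate transporters *SLC1A3* and *SLC1A1* changed in opposite directions. *SLC1A3* (ENSG00000079215.13, chr5 36606355 to 36688332, plus strand), the high-affinity glutamate and aspartate importer EAAT1 known from astrocytes, had 1671 and 1775 counts in NRP2-high libraries, against 238 and 258 counts in NRP2-low libraries. *SLC1A1* (chr9 4490444 to 4587469, plus strand), the EAAT3 importer of neurons and epithelia that also takes up cysteine, had 24 and 21 counts in NRP2-high libraries, against 136 and 138 counts in NRP2-low libraries. The first was high and the second low in both NRP2-high libraries, with no overlap. *SLC1A3* averaged 91.2 ± 0.423 CPM in NRP2-high cells and 12.8 ± 1.25 CPM in NRP2-low cells (SD, n = 2 each), 7.12-fold higher (log2 fold change 2.83, SE 0.08, edgeR adjusted p = 6.4e-10). *SLC1A1* averaged 1.19 ± 0.158 CPM in NRP2-high cells and 7.08 ± 0.358 CPM in NRP2-low cells, 5.91-fold lower (log2 fold change -2.56, SE 0.21, adjusted p = 1.8e-06). *NADK2*, the nearest tested gene before *SLC1A3*, had a log2 fold change of 1.51. *AC008957.3*, which lies within *SLC1A3* on the same strand, had 3.88 with at most 17 counts. The nearest tested genes around *SLC1A1*, *GLIS3* and *PLPP6*, had 0.51 and -0.71. Per length, *SLC1A3* made up 97.8% and 98.2% of the TPM of *SLC1A1*, *SLC1A2* and *SLC1A3* in NRP2-high cells, against 52.8% and 54.4% in NRP2-low cells, where *SLC1A1* supplied nearly all of the rest. Their summed level was 51.7 and 46.7 TPM in NRP2-high cells, against 13.3 and 14.8 TPM in NRP2-low cells. *SLC1A2*, the main glial glutamate importer EAAT2, was barely detected, with 2 and 1 counts in NRP2-high libraries, against 0 and 0 counts in NRP2-low libraries, too few to test.

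The neutral amino acid exchangers of the same family were lower in NRP2-high cells. *SLC1A4* (ASCT1), which exchanges serine, alanine and cysteine, had 18 and 12 counts in NRP2-high libraries, against 56 and 65 counts in NRP2-low libraries. It fell by 1.97 on the log2 scale (SE 0.30, edgeR adjusted p = 0.00021), with 0.799 ± 0.255 CPM in NRP2-high cells and 3.13 ± 0.455 CPM in NRP2-low cells (SD, n = 2 each). *SLC1A5* (ASCT2), a much more abundant glutamine exchanger, had 106 and 98.5 CPM in NRP2-high cells, against 118 and 115 CPM in NRP2-low cells, a narrow gap beside that of *SLC1A4*. Its log2 fold change was -0.19 (adjusted p = 0.015). The call was lost with DESeq2 (-0.18), the test that the study used, and at a threshold of 0.01. Leaving out either of the NRP2-low libraries also ended the call, at -0.19 and -0.20.

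**Figure D2:**
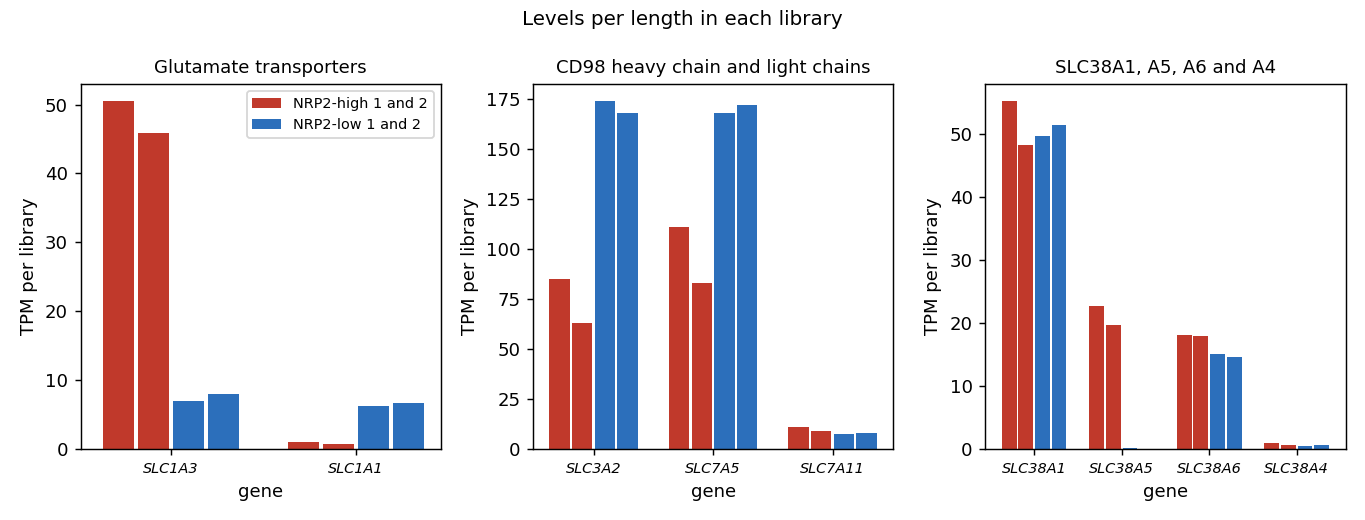
TPM per library (bars, 2 NRP2-high libraries in red, then 2 NRP2-low libraries in blue) of the glutamate transporters, of the CD98 heavy chain *SLC3A2* with 2 of its light chains, and of 4 SLC38 genes. *SLC1A3* stands higher and *SLC1A1* lower in NRP2-high cells, *SLC3A2* and *SLC7A5* stand lower while *SLC7A11* stands higher, and *SLC38A5* has 22.8 and 19.7 TPM in NRP2-high cells against 0.184 and 0.0972 TPM in NRP2-low cells.

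The CD98 system showed lower heavy chain and a different balance of light chains. SLC3A2 (CD98, or 4F2 heavy chain) is the glycoprotein that brings the light chains SLC7A5, SLC7A6, SLC7A7, SLC7A8 and SLC7A11 to the cell surface. *SLC3A2* (ENSG00000168003.16, chr11 62856102 to 62888860, plus strand) had 2320 and 2014 counts in NRP2-high libraries, against 4891 and 4447 counts in NRP2-low libraries. Both NRP2-high libraries were well below both NRP2-low libraries. It averaged 115 ± 15.8 CPM in NRP2-high cells and 241 ± 6.51 CPM in NRP2-low cells (SD, n = 2 each), and fell by 1.07 on the log2 scale (SE 0.08, edgeR adjusted p = 8.3e-07). The nearest tested genes before and after it, *SNHG1* and *RARRES3*, had log2 fold changes of -0.11 and -5.24. The other heavy chain gene, *SLC3A1* (rBAT), the partner of the renal cystine transporter, was almost silent, with 0 and 0 counts in NRP2-high libraries, against 2 and 0 counts in NRP2-low libraries.

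*SLC7A11* (ENSG00000151012.13, chr4 138164097 to 138242349, minus strand) had 570 and 541 counts in NRP2-high libraries, against 393 and 414 counts in NRP2-low libraries. It was higher in both NRP2-high libraries without overlap, at 29.5 ± 2.21 CPM in NRP2-high cells and 20.9 ± 1.61 CPM in NRP2-low cells (SD, n = 2 each). It rose by 0.50 on the log2 scale, 1.41-fold (SE 0.10, edgeR adjusted p = 0.001), and leaving out 1 library at a time gave 0.41 to 0.58 with the call kept, in fits whose spread comes from the population that still has 2 libraries. On the per-length scales with an added constant of 1 the call was lost, at 0.31 (TPM) and 0.28 (FPKM), and at 0.34 with 0.1 added to TPM. The TPM values moved the median of all tested genes by -0.136 (1 added) and -0.158 (0.1 added), and relative to those medians the *SLC7A11* difference was 0.45 and 0.50, and 0.35 relative to the FPKM median. The antisense gene *SLC7A11-AS1* had at most 4 counts in any library.

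*SLC7A5* (ENSG00000103257.8, chr16 87830023 to 87869488, minus strand), the LAT1 light chain that brings in leucine and other large neutral amino acids, moved with the heavy chain. It had 2787 and 2432 counts in NRP2-high libraries, against 4311 and 4174 counts in NRP2-low libraries. NRP2-high cells had the lower level in both libraries, 139 ± 18.6 CPM in NRP2-high cells and 219 ± 3.82 CPM in NRP2-low cells (SD, n = 2 each). The log2 fold change was -0.66 (SE 0.08, edgeR adjusted p = 2.7e-05). Pseudogene copies of *SLC7A5* exist. The authors counted only fragments of mapping quality above 20, which leaves out reads that fit several places equally well. How far this lowered the counts was not tested. *SLC7A7*, a light chain that exports arginine and lysine, had 4 and 5 counts in NRP2-high libraries, against 14 and 10 counts in NRP2-low libraries, and its log2 fold change of -1.35 (SE 0.50, adjusted p = 0.038) lost the call when any 1 of the 4 libraries was left out (-1.54 to -1.15). Its low counts leave the size uncertain (pooled ratio 0.385, 95% Clopper-Pearson interval 0.157 to 0.857). *SLC7A6*, a related exchanger, did not pass, with a log2 fold change of 0.12 (adjusted p = 0.32), and its sign turned to -0.03 with 1 added to TPM. *SLC7A8* (LAT2) had 0 and 0 counts in NRP2-high libraries, against 4 and 2 counts in NRP2-low libraries, too few to test, and the 95% Clopper-Pearson interval of the pooled ratio reached up to 0.871.

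The summed light chain level was lower in NRP2-high cells, at 131 and 99.9 TPM, against 184 and 189 TPM in NRP2-low cells. Set against the heavy chain, which fell more, the light chains stood higher per length in NRP2-high cells. The ratio of summed light chain TPM to *SLC3A2* TPM was 1.54 and 1.59 in NRP2-high cells, against 1.06 and 1.13 in NRP2-low cells. *SLC7A11* reached 0.132 and 0.144 of *SLC3A2* in NRP2-high cells, against 0.0431 and 0.05 in NRP2-low cells. *SLC7A5* remained the main light chain, with 85.0% and 83.0% of their TPM in NRP2-high cells, against 91.0% and 91.0% in NRP2-low cells, while *SLC7A11* supplied 8.55% and 9.09% in NRP2-high cells, against 4.08% and 4.44% in NRP2-low cells. These shares describe transcripts and were not tested.

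**Figure D3:**
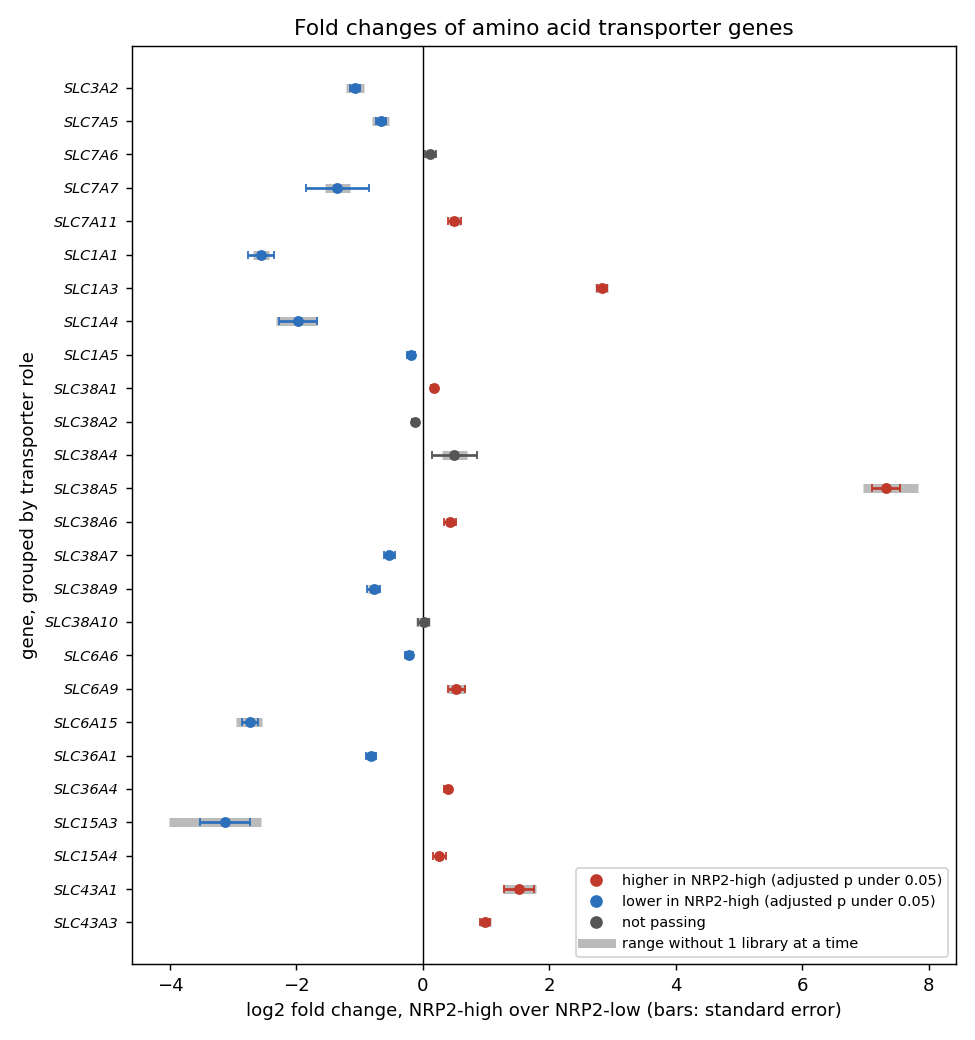
Log2 fold change of NRP2-high over NRP2-low for each tested transporter gene (points, with SE derived from the test statistic), grouped by role. Grey shows the range obtained when 1 library at a time is left out. *SLC38A5*, *SLC1A3*, *SLC43A1* and *SLC43A3* lie on the positive side, *SLC15A3*, *SLC6A15*, *SLC1A1* and *SLC1A4* lie furthest on the negative side, and *SLC15A3* has the widest grey range (-4.01 to -2.56).

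Among the sodium- and chloride-coupled SLC6 transporters, 1 rose and 2 fell of 3 tested. *SLC6A15*, an importer of branched-chain amino acids and proline best known from neurons (chr12 84859488 to 84913615, minus strand), had 66 and 92 counts in NRP2-high libraries, against 551 and 527 counts in NRP2-low libraries. It was low in both NRP2-high libraries, at 4.17 ± 0.815 CPM in NRP2-high cells and 27.8 ± 0.245 CPM in NRP2-low cells (SD, n = 2 each), and fell 6.65-fold (log2 fold change -2.73, SE 0.13, edgeR adjusted p = 2.7e-08). The nearest tested genes on either side, *TMTC2* and *ALX1*, were lower too, with log2 fold changes of -1.88 and -3.36. Whether these neighbours changed together was not tested. *SLC6A9*, the glycine transporter, had 329 and 286 counts in NRP2-high libraries, against 209 and 227 counts in NRP2-low libraries. It rose by 0.53 on the log2 scale (SE 0.13, adjusted p = 0.0046) and lost the call without NRP2-low library 1 (0.43). An opposite-strand gene that overlaps it, *AL139220.2*, had 36 and 52 counts in NRP2-high libraries, against 15 and 3 counts in NRP2-low libraries. The spans share only chr1 44030443 to 44031360. Whether the counting used strand is not given in the sources used here, so reads in that stretch cannot be told apart. *CCDC24*, which overlaps the other end of *SLC6A9* on the opposite strand, had at most 45 counts in any library. *SLC6A6*, the taurine importer, had 52.3 and 51.4 CPM in NRP2-high cells, against 58.3 and 62.7 CPM in NRP2-low cells (log2 fold change -0.22, adjusted p = 0.015). Its call was lost with DESeq2 (-0.21), at a threshold of 0.01 and without NRP2-low library 2 (-0.17). *SLC6A14*, a broad importer of neutral and basic amino acids, had 1 and 0 counts in NRP2-high libraries, against 0 and 0 counts in NRP2-low libraries.

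Of the 4 SLC36 and SLC15 genes, *SLC15A3* and *SLC36A1* fell in NRP2-high cells and *SLC36A4* and *SLC15A4* rose. Of the 4 SLC38 genes outside the plasma membrane group, *SLC38A7* and *SLC38A9* fell, *SLC38A6* rose and *SLC38A10* did not pass. *SLC15A3* (chr11 60937084 to 60952530, minus strand), which moves histidine and small peptides out of endolysosomes, had 8 and 3 counts in NRP2-high libraries, against 51 and 50 counts in NRP2-low libraries. Both NRP2-high libraries were near the lower limit of the assay. It averaged 0.295 ± 0.198 CPM in NRP2-high cells and 2.61 ± 0.0685 CPM in NRP2-low cells (SD, n = 2 each), and fell by 3.13 on the log2 scale (SE 0.39, edgeR adjusted p = 5.1e-05). Without NRP2-high library 1 the value was -4.01, and without NRP2-high library 2 it was -2.56. The overlapping opposite-strand gene *TMEM132A* had more counts in every library, 730 and 642 counts in NRP2-high cells, against 447 and 436 counts in NRP2-low cells, a difference in the other direction. The spans of both genes share only chr11 60937084 to 60937159.

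The related *SLC15A4* was only slightly higher, at 18.3 and 17.3 CPM in NRP2-high cells, against 15.3 and 14.5 CPM in NRP2-low cells, with a log2 fold change of 0.26 (edgeR adjusted p = 0.045) that lost its call in 13 of 17 alternative analyses, among them those without NRP2-high library 1 (0.22), NRP2-low library 1 (0.29) or NRP2-low library 2 (0.22). *SLC36A1*, a proton-coupled exporter of small amino acids from lysosomes, fell by 0.82 (adjusted p = 9.2e-06), with 22.0 ± 0.287 CPM in NRP2-high cells and 38.7 ± 2.18 CPM in NRP2-low cells (SD, n = 2 each). *SLC36A4*, of the same family, rose by 0.39 (adjusted p = 0.00018), with 87.3 and 86.7 CPM in NRP2-high cells, against 65.5 and 67.3 CPM in NRP2-low cells. The family therefore split in direction. *SLC38A9*, the lysosomal arginine sensor that signals to mTORC1, fell by 0.78 (adjusted p = 0.00011), with 14.0 and 12.4 CPM in NRP2-high cells, against 24.1 and 21.2 CPM in NRP2-low cells. *SLC38A7*, which releases glutamine from lysosomes, fell by 0.53 (adjusted p = 0.00051), with 16.1 and 16.3 CPM in NRP2-high cells, against 23.9 and 22.9 CPM in NRP2-low cells. Both genes were lower in each NRP2-high library. Of the less studied relatives, *SLC38A6* rose by 0.43 (adjusted p = 0.0016) and *SLC38A10* did not pass (0.01, adjusted p = 0.96), the only tested member whose levels overlapped between the populations, and its sign turned to -0.14 with 1 added to TPM and to -0.08 with upper-quartile scaling. *SLC38A6* had 26.9 and 29.3 CPM in NRP2-high cells, against 21.2 and 20.6 CPM in NRP2-low cells. The opposite-strand gene *TRMT5*, which overlaps *SLC38A6* only from chr14 60981114 to 60981170, had 853 and 976 counts in NRP2-high libraries, against 913 and 907 counts in NRP2-low libraries.

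Both SLC43 uniporters of the list rose. *SLC43A1* (LAT3), which lets leucine, isoleucine, valine and phenylalanine through the plasma membrane, had 71 and 81 counts in NRP2-high libraries, against 23 and 31 counts in NRP2-low libraries. It averaged 4.02 ± 0.221 CPM in NRP2-high cells and 1.40 ± 0.348 CPM in NRP2-low cells (SD, n = 2 each), 2.87-fold higher (log2 fold change 1.52, SE 0.24, edgeR adjusted p = 0.0003). *SLC43A3*, a family member characterised as a purine nucleobase carrier rather than an amino acid carrier, had 1581 and 1468 counts in NRP2-high libraries, against 862 and 722 counts in NRP2-low libraries. It was 1.98-fold higher (log2 fold change 0.98, SE 0.08, adjusted p = 2.3e-06). Both genes were high in each NRP2-high library, and they lie near each other on chromosome 11. *RTN4RL2*, the tested gene between them, had a log2 fold change of 1.98. *SSRP1* and *TIMM10*, the nearest tested genes on the outer sides, had 0.19 and 0.36. Whether these neighbours changed together was not tested. *SLC16A10*, a carrier of aromatic amino acids, had 4 and 8 counts in NRP2-high libraries, against 4 and 6 counts in NRP2-low libraries, too few to test.

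**Figure D4:**
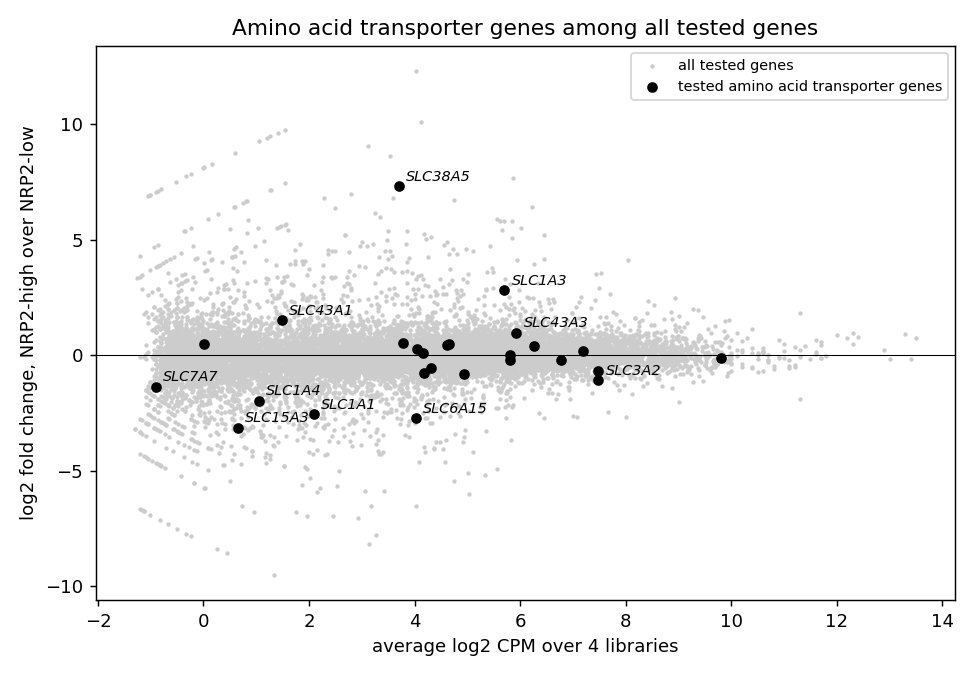
Log2 fold change of NRP2-high over NRP2-low against average log2 CPM over the 4 libraries for all 15083 tested genes (grey) and the 26 tested amino acid transporter genes (black, the widest changes named). *SLC38A5* (7.32) and *SLC1A3* (2.83) lie well above the band of most genes, and *SLC15A3* (-3.13), *SLC6A15* (-2.73) and *SLC1A1* (-2.56) well below it.

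Genes that work with these carriers were counted in the same fit. Of 29 other amino acid and dipeptide transporter genes, 6 were tested, of which 1 rose and 4 fell (median log2 fold change -1.10, 83.3% called, beside 56.5% of all genes). *SLC7A1*, the main arginine and lysine importer, fell by 1.29 (edgeR adjusted p = 5.8e-09), with 2507 and 2514 counts in NRP2-high libraries, against 6477 and 6100 counts in NRP2-low libraries, whereas its relative *SLC7A2* rose by 1.42 (adjusted p = 1e-05). *CTNS*, the lysosomal cystine exporter, fell by 1.46 (adjusted p = 6e-07), and *SLC43A2* (LAT4) fell by 1.45 (adjusted p = 2.5e-06), opposite to *SLC43A1* and *SLC43A3*. *CTNS* and *SLC43A2* lie near each other on chromosome 17 (starts at 3636468 and 1569267). Whether these decreases belong to the carriers or are shared by other genes of that region was not tested.

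Enzymes that use glutamine or glutamate also differed. *GLUD1*, which oxidises glutamate, and *GLUL*, which makes glutamine, rose by 0.39 and 0.32 (edgeR adjusted p = 4.4e-05 and 0.00028), and the aspartate aminotransferase *GOT1* fell by 0.26 (adjusted p = 0.025). Of 10 enzymes of the glutathione and thioredoxin systems, 3 rose and 4 fell (median -0.32, 70.0% called, beside 56.5% of all genes). Thioredoxin *TXN* fell by 0.94 (adjusted p = 6.2e-07), its reductase *TXNRD1* by 0.56 and *GCLM*, the modifier subunit of the first glutathione-making enzyme, by 0.32, while the glutathione reductase *GSR* rose by 0.77 (adjusted p = 2.1e-06).

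*NFE2L2*, its inhibitor *KEAP1* and the targets *HMOX1* and *PRDX1* gave 0 calls of 4 with edgeR and 0 with DESeq2, and 1 of them (*NFE2L2*) had an unadjusted p under 0.05. *SLC7A11* aside, this list holds only the targets that the study named, and it does not stand for all genes that NFE2L2 controls. The glutathione and thioredoxin enzymes above, of which 3 rose and 4 fell, were counted apart from it. The study reported *HMOX1*, *PRDX1* and *SLC7A11* by qPCR in knockdown or treated cells and in tumours, not in these sorted populations. It followed NFE2L2 by nuclear localization and KEAP1 by S-nitrosylation of the protein, which RNA levels do not show. Their log2 fold changes were -0.17 for *NFE2L2*, 0.07 for *KEAP1*, 0.05 for *HMOX1* and -0.10 for *PRDX1* (SE 0.05 to 0.08), beside 0.50 for *SLC7A11* and calls for 56.5% of all tested genes. *NFE2L2* passed as lower in 7 of 17 alternatives, among them upper-quartile scaling (-0.25), the replicate block (-0.17), log2(TPM + 1) (-0.32) and the fit without NRP2-high library 2 (-0.28). *PRDX1* passed as lower in 2 (-0.18 with upper-quartile scaling and -0.12 without NRP2-high library 1), and *KEAP1* and *HMOX1* passed as higher without NRP2-high library 2 (0.20 and 0.15), with a sign below 0 in other alternatives (to -0.08 and -0.10).

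In the amino acid response, which the kinase EIF2AK4 starts when uncharged transfer RNA builds up and which acts through ATF4, 2 of 9 tested genes rose and 6 fell (median log2 fold change -0.83, 88.9% called, beside 56.5% of all genes). *EIF2AK4* itself rose by 0.66 (edgeR adjusted p = 2.5e-06). The stress-induced genes *TRIB3*, *DDIT3* and *NUPR1* fell by 1.38, 1.5 and 2.08. Of 26 tested genes that carry amino acid signals to mTORC1, 6 rose, 9 fell and 11 did not pass (median -0.04, 57.7% called, beside 56.5% of all genes). The kinase *MTOR* rose by 0.58 and the methionine-linked sensor *SAMTOR* by 0.93, while *LAMTOR3*, a subunit of the lysosomal scaffold, fell by 0.73 and *FLCN*, which acts on the Rag GTPases of that scaffold, fell by 1.16. *FLCN* lies on chromosome 17 (start at 17212212), as *CTNS* and *SLC43A2* do, and a decrease shared with that region was not tested. The call rate in this pathway was that of the whole table.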

How the data were processed

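RNA from sorted BT549 cells (2 NRP2-high and 2 NRP2-low libraries, grouped by their titles) was sequenced as paired-end reads from a stranded poly(A) library kit. The authors aligned reads to hg38 with STAR, kept those of mapping quality above 20 and counted them per gene with featureCounts; the deposited counts were not normalized. The strand setting of the counting and the annotation release are not given in the sources used here. The deposited TPM values equal counts per gene length scaled to 1 common library sum, and the deposited FPKM values equal counts per length and per library total, as recomputed from the counts (largest deviation 2.57e-12% and 0.0303%). Library totals ranged from 18165923 to 20585102 counts, and counting intervals cover counting error only.

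Counts were tested with edgeR 4.0.16 in R 4.3.3 (filterByExpr, TMM factors, quasi-likelihood F test, no covariate), with Benjamini-Hochberg adjustment over 15083 genes and a threshold of 0.05. CPM were counts per effective library size and errors were SD over 2 libraries. The SE was the size of the log2 fold change over the square root of the F statistic. At low counts it can understate the counting error. The common biological coefficient of variation was 0.0502. The fit was tested on simulated data. Alternatives were DESeq2 1.42.0, voom and limma 3.58.1 on log2(TPM + 1), log2(TPM + 0.1) and log2(FPKM + 1), other scaling factors, other count filters, a test against 1.5-fold, a threshold of 0.01, a replicate block and leaving out each library, where the lone library left in a population is assumed to vary like those of the other. The members and gene lists were chosen with earlier results of these data known. Per-library values were given for *SLC7A11*, *SLC38A5*, *SLC3A2* and *SLC7A5*, for the passing members with the 6 largest increases and the 6 largest decreases, and for members at 0 counts in a population, and up to 4 genes with the smallest adjusted p were named from each other list. Of 111 other listed genes, 97 had a row, 3 of them under an older name. A listed gene outside the transporter group, and the counts of its list, are not reported here. Promoter windows came from RefSeq (GRCh38.p14).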

Additional observations from a re-analysis of the deposited data

How the results depend on the processing

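Of the 22 called members, 10 kept their direction and call under all alternatives they could be fitted in, and 12 lost the call under at least 1 of the 17 (*SLC7A5*, *SLC7A7*, *SLC7A11*, *SLC1A5*, *SLC38A1*, *SLC38A6*, *SLC6A6*, *SLC6A9*, *SLC36A4*, *SLC15A4*, *SLC38A7* and *SLC38A9*); of the 4 others, *SLC38A2* gained it. No called value changed sign. Members called higher numbered 4 with a test against 1.5-fold, 4 on log2(TPM + 1), 4 on log2(TPM + 0.1) and 6 on log2(FPKM + 1), beside 10; members called lower numbered 6 against 1.5-fold, beside 12. Over all genes, 1441 were higher and 1364 lower against 1.5-fold, and 2594 (1 added) or 2556 (0.1 added) were higher on TPM, beside 4354 higher and 4175 lower. Higher calls made up 51.0% of all calls, and 35.9% to 40.2% on TPM or FPKM. Leaving out each library gave 7 to 10 members higher and 9 to 12 lower, and 3320 to 4849 genes higher and 3061 to 4625 lower. Replicate numbers did not pair the libraries (correlation -0.01); with them as a replicate block, 10 members were higher and 12 lower, and 4509 and 4371 of all genes. DESeq2 called 9 members higher and 9 lower, and 3470 and 2882 of all genes. The cause of these changes was not tested. An added constant of 1 shrinks differences of genes with low TPM or FPKM, and on log2(FPKM + 1) the values were -1.56 for *SLC6A15*, -1.14 for *SLC1A1*, -0.46 for *SLC15A3*, -0.40 for *SLC1A4* and 0.57 for *SLC43A1*. With 2 libraries a group, small or low-count differences, as for *SLC7A7*, are the least certain.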

Other observations

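Carriers outside the amino acid group also differed widely. Among the other SLC-named genes with a mean of at least 5 CPM, the largest increases in NRP2-high cells were those of *SLCO2A1*, a prostaglandin carrier (log2 fold change 2.01), *SLC6A8*, the creatine importer (1.81), *SLC18B1* (1.74) and *SLC16A1*, the lactate and pyruvate carrier MCT1 (1.71). *SLC16A1* was abundant, with 14646 and 14937 counts in NRP2-high libraries, against 4759 and 4492 counts in NRP2-low libraries, and *SLC6A8* had 3898 and 3577 counts in NRP2-high libraries, against 1123 and 1065 counts in NRP2-low libraries. The populations were far apart for both. The largest decreases were those of *SLC22A5*, the carnitine importer (-2.08), *SLC2A6*, a lysosomal member of the glucose transporter family (-1.69), and *SLC29A2*, a nucleoside carrier (-1.46). All of these passed edgeR's test over all genes, the largest adjusted p being 4.6e-05 for *SLC29A2*.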
